A study of Homo sapiens with 16 samples.

Results

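The alpha-globin cluster lies near the end of the short arm of chromosome 16 and was covered here by 8 bins of 20 kb, chr16:100001-260000 in hg19, numbered 6 to 13 from the chromosome end. They were chosen by position, as the bins over HBZ, HBM, HBA2, HBA1, HBQ1 and NPRL3, together with their contacts within the first 2 Mb of the chromosome. They are 8 of 137198 bins that held contacts in all 8 contact maps used, and 65 of the 100 bins of those first 2 Mb were listed in all 8 maps, which leaves 57 bins around the cluster for comparison. The data are Hi-C maps of K562, an aneuploid erythroleukaemia line, fixed with formaldehyde and cut in nuclei with the restriction enzyme HindIII for 0.25, 1, 3 or 12 h, with 2 replicates at each time. No other treatment or genotype separates the groups, and the maps show 1 cell line only. Nothing in the labels says whether the replicates were separate cultures, so p-values measure the spread between these libraries. The study used the shortest digestions to ask which domain boundaries are the most accessible. The 8 libraries held between 62777251 contacts (0.25 h, replicate 2) and 176412222 contacts (12 h, replicate 1), and both 12 h libraries were deeper than both 0.25 h libraries. As a check of the label, the BCR and ABL1 bins, joined in K562 by its known fusion, shared 414 to 1873 contacts per library, which is at least 37809 times the mean pair of bins on different chromosomes.

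The alpha-globin genes make the alpha-like chains of haemoglobin. HBZ encodes the embryonic zeta chain and HBA2 and HBA1 the alpha chains of fetal and adult haemoglobin, while HBM and HBQ1 are minor members of the family. Their enhancers lie upstream, within introns of NPRL3, a housekeeping gene of the GATOR1 complex that restrains mTORC1, and in erythroid cells these enhancers are known to contact the gene promoters within 1 small domain. K562 cells make embryonic and fetal globins, zeta-globin among them. By position, bin 6 holds part of RHBDF1 (an inactive rhomboid protease), bin 7 the ends of RHBDF1 and NPRL3 and the DNA repair gene MPG, bins 8 to 10 the rest of NPRL3 with the enhancers, bin 11 HBZ and HBM, bin 12 HBA2, HBA1 and HBQ1, and bin 13 the splicing factor gene LUC7L. The main enhancer is taken to lie in bin 9 and the NPRL3 promoter in bin 10. The globin genes and NPRL3 were placed by their hg19 positions, while the main enhancer, RHBDF1, MPG and LUC7L were placed from general knowledge of the locus and not from an hg19 annotation, and the values by gene or enhancer depend on this.

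Promoter sequences of 2 of the 6 genes, HBM and NPRL3, were at hand from RefSeq (GRCh38.p14), and they show the letters the assay and the cell type turn on. HindIII cuts at AAGCTT, so a stretch without it can be joined to other DNA only through cuts further away. The other letters searched were GATAAG, read by the erythroid factor GATA1, TATAA and CCAAT, on both strands, in the 250 bases before each gene start, with any match in capitals. The HBM window is chr16:165728-165977 on the plus strand and the NPRL3 window is chr16:138674-138923 on the minus strand, both of GRCh38.p14.
HBM: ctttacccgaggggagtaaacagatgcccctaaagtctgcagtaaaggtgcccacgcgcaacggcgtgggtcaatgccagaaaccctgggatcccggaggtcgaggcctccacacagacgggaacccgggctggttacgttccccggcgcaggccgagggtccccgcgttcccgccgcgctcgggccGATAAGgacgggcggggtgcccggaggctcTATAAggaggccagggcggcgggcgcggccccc
NPRL3: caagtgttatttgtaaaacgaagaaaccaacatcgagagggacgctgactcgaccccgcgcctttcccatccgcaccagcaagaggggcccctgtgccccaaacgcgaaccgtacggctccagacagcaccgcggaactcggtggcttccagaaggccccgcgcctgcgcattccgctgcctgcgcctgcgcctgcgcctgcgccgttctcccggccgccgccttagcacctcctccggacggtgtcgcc
The HBM window holds GATAAG starting 63 bases and TATAA starting 33 bases before the gene start, and no AAGCTT or CCAAT. None of these letters were found in the NPRL3 window. Among 35116 promoter windows of the same length, AAGCTT was in 5.02%, GATAAG in 5.65%, TATAA in 18.9% and CCAAT in 32.0%. The 2 windows are rich in G and C, at 69.2% for HBM and 66.4% for NPRL3.

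All 8 bins held few contacts. Counting contacts of a bin with all other bins, per 1000000 such contacts of the library (CPM below), the median bin of the genome stood at 12.7 to 13.2 in every library. At 12 h the mean of the 2 libraries was 7.93 ± 0.124 (SD, n = 2) for bin 8 and 6.73 ± 0.221 for bin 6, the highest of the 8. Bins 9, 13, 10 and 7 followed at 5.51 ± 0.389, 4.44 ± 0.178, 4.19 ± 0.348 and 3.43 ± 0.109, and the libraries of bins 13 and 10 overlapped. The 2 bins that hold the globin genes were the lowest, at 1.84 ± 0.161 for bin 12 (HBA2, HBA1, HBQ1) and 1.69 ± 0.0351 for bin 11 (HBZ, HBM), and their order turned at 0.25 h. Contacts with other chromosomes made up a large part: the share of contacts that stayed on chromosome 16 was 63.5% to 64.3% for the 8 bins summed, by time, against 86.5% to 87.5% over all bins. The other 57 bins of the first 2 Mb were low in these measures as well, with shares of 66.0% to 69.7% and a median of 3.66 CPM at 12 h beside 4.31 for the 8 bins. Bin 12 stood highest among the 8 in that share, at 72.9% ± 5.78 (SD, n = 2) at 12 h, while bins 10 and 11 were the lowest, at 55.1% ± 3.65 and 55.8% ± 0.0375, with libraries that overlapped.

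The first comparison asks whether the cluster took part in fewer contacts when digestion was short. Most of it did: at 0.25 h bins 6, 7, 8, 9, 10 and 13 held fewer CPM than at 12 h, while bin 11, with HBZ and HBM, and bin 12, with the alpha genes, did not pass the threshold. Bin 12 did pass it in the fit with the replicate number as a block. The plot of contacts by bin and library shows each library.

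**Figure D1:**
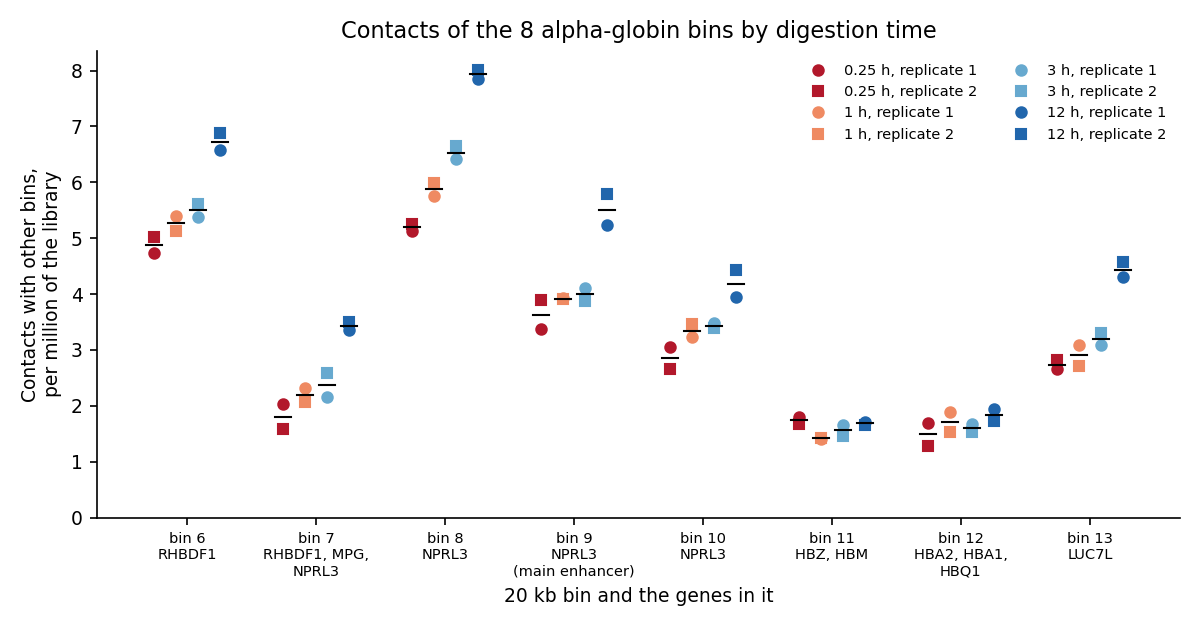
Contacts with other bins in CPM (y axis, from 0) for each of the 8 alpha-globin bins (x axis), with 1 point per library, coloured by digestion time, and a bar at the mean of each time. Bins 6 to 10 and 13 stand higher at 12 h than at 0.25 h in both replicates, and bins 11 and 12 stay between 1.28 and 1.95.

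Bin 9, with the main enhancer, stood at 3.37 and 3.89 CPM (0.25 h), 3.93 and 3.91 (1 h), 4.1 and 3.88 (3 h) and 5.2 and 5.79 (12 h) (replicates 1 and 2). Both 12 h libraries were above the other 6. Its log2 fold change of 0.25 h over 12 h was -0.60 (SE 0.0861, limma, Benjamini-Hochberg adjusted p = 4.63e-06 over all bins), and those of 1 h and 3 h over 12 h were -0.49 and -0.46 (adjusted p = 9.12e-05 and 0.000276). Bin 8, inside NPRL3, stood at 5.13 and 5.26 (0.25 h), 5.76 and 5.98 (1 h), 6.41 and 6.65 (3 h) and 7.84 and 8.02 (12 h). The 4 times did not overlap in bin 8. Its log2 fold change was -0.61 (SE 0.0653, adjusted p = 1.45e-07 by limma). Bin 7, over the ends of RHBDF1 and NPRL3 and all of MPG, showed the largest drop of the 8, from 3.35 and 3.5 (12 h) to 2.03 and 1.58 (0.25 h), a log2 fold change of -0.93 (SE 0.121, adjusted p = 1.47e-06). Bin 10 (NPRL3 promoter), bin 6 (RHBDF1) and bin 13 (LUC7L) changed by -0.55, -0.46 and -0.69 on the log2 scale, each past the threshold in limma. These 6 bins also passed the threshold at 1 h and at 3 h against 12 h, where 28.8% and 24.1% of all bins were called lower.

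The globin gene bins did not pass the same test. Bin 11 (HBZ, HBM) stood at 1.80 and 1.68 CPM (0.25 h), 1.40 and 1.43 (1 h), 1.66 and 1.47 (3 h) and 1.71 and 1.66 (12 h). The 0.25 h and 12 h libraries overlapped, and the log2 fold change was 0.05 (SE 0.122, adjusted p = 0.758 by limma). Its sign turned to -0.019 for contacts on the same chromosome and to -0.14 with contacts inside bins included, neither past the threshold. Bin 11 held 0 contacts inside it in every library, so the second of these settings changed only its scaling to the library total. Bin 12 (HBA2, HBA1, HBQ1) stood at 1.69 and 1.28 (0.25 h), 1.88 and 1.52 (1 h), 1.67 and 1.53 (3 h) and 1.95 and 1.72 (12 h). Replicate 1 was above replicate 2 at every time in bin 12, and both 0.25 h values lay below both 12 h values. The log2 fold change was -0.31 (SE 0.141, adjusted p = 0.0649), which limma called with the replicate number as a block (adjusted p = 0.0275). It was also called with contacts inside bins included (-0.50, adjusted p = 0.00815 by limma). Bin 12 held 1 such contact over the 8 libraries, so that setting changed its scaling to the library total and hardly its own contacts. Without 0.25 h replicate 1 the fold change was -0.51.

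The bins around the cluster fell as well. Of all 137197 bins tested, 34.9% were called lower and 20.9% higher at 0.25 h than at 12 h, against 6 and 0 of the 8 bins, and with median-of-ratios scaling those shares were 27.8% and 28% with the same count in the cluster. The other 57 bins of the first 2 Mb had 55 called lower and 0 called higher, with a median log2 fold change of -0.68, beside -0.58 for the 8 bins and -0.05 for all bins. The 4 bins over the beta-globin cluster on chromosome 11 went the other way or not at all, with 2 called higher and fold changes from -0.05 to 0.38 on the log2 scale. These sets were not tested against each other. Contacts per library moved with time as well, and the part of depth in the drop was not tested beyond the scaling to library totals.

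**Figure D2:**
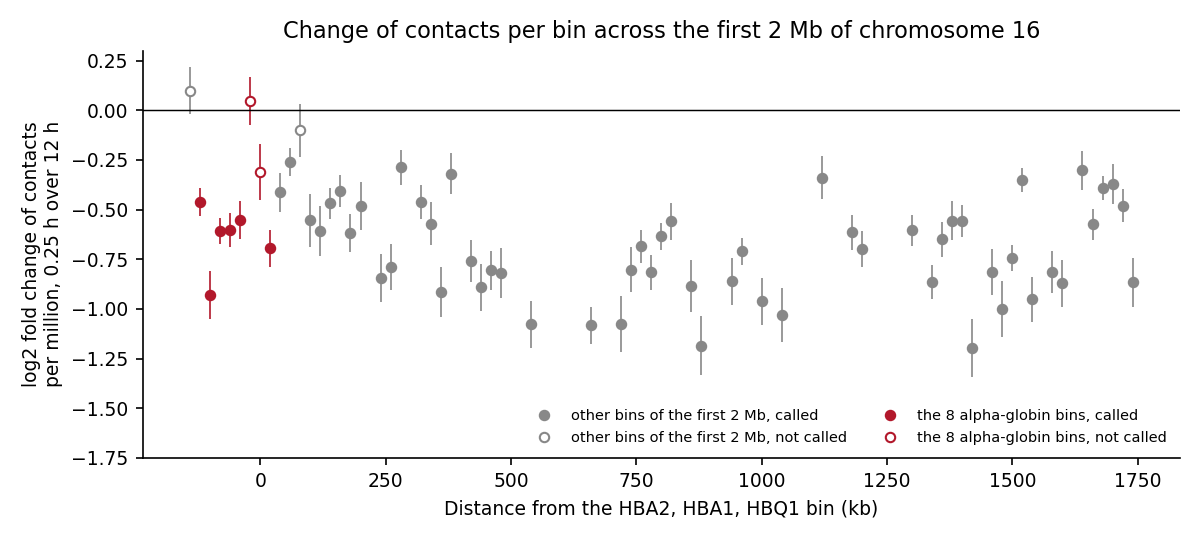
log2 fold change of CPM at 0.25 h over 12 h (y axis, bars are the standard error of the limma fit) for each listed bin of the first 2 Mb, by distance in kb from the HBA2, HBA1, HBQ1 bin (x axis). Filled points passed the threshold: 6 of the 8 alpha-globin bins and 55 of the 57 others, all below 0.

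Set against the mean of the listed bins up to 5 bins to each side, a comparison added after the values were seen, bin 11 (HBZ, HBM) was the 1 bin of the 8 called higher. It was higher at 0.25 h by 0.54 on the log2 scale, a call by limma. Its own CPM was not called (log2 fold change 0.05), while bins 6 to 10 and 13 held fewer CPM. The measure was chosen with these values known, so the call is a description and carries no test. On this scale 18.2% of all bins were called higher and 14.9% lower. Among the other 50 bins of the first 2 Mb with a value, 14 were called higher, and the highest of them stood at 0.73, above bin 11. Bin 11 was not called at 1 h (0.14, limma adjusted p = 0.181) or 3 h (0.22, adjusted p = 0.0693). None of the 8 bins was called higher at those times, where 12.6% (1 h) and 7.89% (3 h) of all bins were. At 1 h bins 7 and 13 were called lower, at -0.38 and -0.22, where 9.43% of all bins were. At 0.25 h bins 7, 8 and 13 were called lower on this scale, at -0.59, -0.18 and -0.30. Bins 6, 9 and 10 were no longer called, at -0.04, -0.18 and -0.14, and bin 12 stood at 0.16 (adjusted p = 0.326).

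Contacts with other chromosomes alone gave the same 6 bins at 0.25 h. At 1 h and at 3 h against 12 h this measure called 0 of the 8 bins, where 1.01% and 0.0671% of all bins were called lower. Bins 6, 7, 8, 9, 10 and 13 were called lower at 0.25 h in limma, with log2 fold changes from -0.61 in bin 13 to -0.43 in bin 10, where only 3.67% of all bins were called lower. Of the other 57 bins of the first 2 Mb, 19 were called lower in this measure. The gene bins were not called, at 0.22 for bin 11 (adjusted p = 0.507) and -0.07 for bin 12 (adjusted p = 0.884).

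In the first sequencing run, with 50 kb bins, bins 3 and 4 of the chromosome (RHBDF1 to the NPRL3 end, and the rest of NPRL3) held fewer CPM at 0.25 h than at 12 h, by -0.53 (limma adjusted p = 0.00628) and -0.72 (adjusted p = 0.000177) on the log2 scale, where 15.9% of 53490 bins were called lower. Neither bin was called by limma at 1 h, at -0.40 (adjusted p = 0.0564) and -0.32 (adjusted p = 0.102), or at 3 h, at -0.10 (adjusted p = 0.743) and -0.14 (adjusted p = 0.576). Bin 5 of that map, which holds all the globin genes, was at -0.37 (adjusted p = 0.106) with a lower filter, added after seeing the data. Bin 4 of that map holds both the main enhancer and the NPRL3 promoter. On the balanced signal it met the globin bin at 1.84 times the mean of pairs at that distance (exact Poisson 95% interval 1.44 to 2.32, 72 contacts). Bin 3 of that map met the globin bin at 3.33 (interval 2.56 to 4.26, 63 contacts). No values without balancing are given for this run, so the order of these 2 ratios is not read. By library, the ratio of bin 3 with the globin bin was 1.36 and 0 (0.25 h), 3.84 and 5.36 (1 h), 3.31 and 4.35 (3 h) and 3.21 and 3.16 (12 h). Both 0.25 h libraries lay below the other 6, a difference that was not tested. An average pair would hold 18.9 contacts over the 8 libraries, so the 0.25 h ratios rest on few contacts. In the second run bin 6, which lies inside that 50 kb bin 3, met bin 12 at pooled ratios of 8.25 (0.25 h) and 5.44 (12 h). It met bin 11 at 2.22 (0.25 h) and 2.86 (12 h). Bin 7 held only 3 contacts with each of bins 11 and 12 at 0.25 h. No loss of this contact at 0.25 h is read from these ratios. The first run carries the same time and replicate labels and was not counted as further replicates.

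Contacts listed inside a single bin, here self contacts, join ends of fragments less than 20 kb apart. They took 14% ± 2.87 (SD, n = 2) of all contacts of the 8 bins at 0.25 h, then 9.45% ± 0.743 (1 h), 9.07% ± 0.672 (3 h) and 6.44% ± 0.196 (12 h). Over all bins the share was 12.6% at 0.25 h and 6.15% at 12 h. Bin 8, inside NPRL3, held more self contacts than any other of the 8 in each library, with 184 and 154 self contacts (0.25 h) against 185 and 149 (12 h), although its other contacts were fewer at 0.25 h. Self contacts were 28.3% and 38.1% of all contacts of bin 8 (0.25 h) against 13.2% and 12.0% (12 h). The ratio of self contacts to contacts with other bins rose at 0.25 h by 1.77 on the log2 scale in bin 8 (SE 0.207, limma adjusted p = 6.35e-05) and by 0.77 in bin 6 (SE 0.142, adjusted p = 0.000914). These were 2 of the 6 bins with enough self contacts for a fold change (bins 11 and 12 had too few), against 64.7% of all bins, whose median was 0.82. In bin 6 the call rested on the fall of its other contacts, since self CPM differed by 0.12 on the log2 scale (adjusted p = 0.669). Bins 7, 9, 10 and 13 were not called, at -0.11, 0.25, 0.51 and 0.46.

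The globin gene bins held almost no self contacts. Bin 11 had 0 self contacts in all 8 libraries and bin 12 had 1 in total, at 1 h in replicate 1, so no fold change is given for them. Of 3592 bins with a number of contacts within 1.5 times that of bin 11, 51.7% had no self contacts in any library, and over all bins the share was 2.35%. Of the other 57 bins of the first 2 Mb, 1 had none, and their median was 132 self contacts over the 8 libraries.

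The central question for this locus is how strongly the enhancer bins met the gene bins, and whether digestion time changed it. For each pair of bins the deposited balanced signal was divided by the mean signal of all pairs of the genome at the same distance in the same library, which gives a ratio of 1 for an average pair. In every library the alpha-gene bin 12 met bins 9 and 8 several times more than an average pair. The ratio of bin 9 (main enhancer) with bin 12, 60 kb apart, was 5.72 and 6.20 (0.25 h), 4.72 and 8.11 (1 h), 3.37 and 8.40 (3 h) and 5.07 and 3.88 (12 h). The lowest library stood at 3.37, and the times overlapped. Over the 8 libraries the pair held 120 contacts, for a pooled ratio of 5.13 (exact Poisson 95% interval 4.25 to 6.13, counting error only), and 0.00521% of 134442 pairs at that distance were higher. On the balanced signal it was the highest of the 47 pairs at that distance in the first 2 Mb, whose median was 1.64. This rank turned without balancing, where bin 6 with bin 9, also 60 kb apart, held 0.70 of the distance mean and bin 9 with bin 12 held 0.57.

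Bin 8 with bin 12, 80 kb apart, gave 5.16 and 3.63 (0.25 h), 4.68 and 6.30 (1 h), 4.51 and 6.89 (3 h) and 4.13 and 5.11 (12 h). Its pooled ratio was 4.91 (interval 4.15 to 5.76, 150 contacts). The RHBDF1 bin 6 with bin 12, 120 kb apart, reached 6.27 (interval 5.17 to 7.52, 115 contacts) and lay between 5.06 and 8.54 in the 8 libraries. Bin 7 with bin 12 stood at 3.98 (interval 2.74 to 5.58) on 33 contacts only. On the balanced signal these 4 pairs of bin 12 were the highest of the 28 pairs among the 8 bins. Without balancing the order turned: bin 6 with bin 8 was the highest, at 1.91 of the distance mean, followed by bin 6 with bin 13 at 1.18 and bin 8 with bin 13 at 1.12, and bin 7 with bin 12 stood at 0.25. In contrast, bin 10 with bin 12, the NPRL3 promoter bin and the alpha-gene bin, gave 1.54 (interval 1.11 to 2.08, 42 contacts), below the median of 1.67 at its distance in the first 2 Mb.

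**Figure D3:**
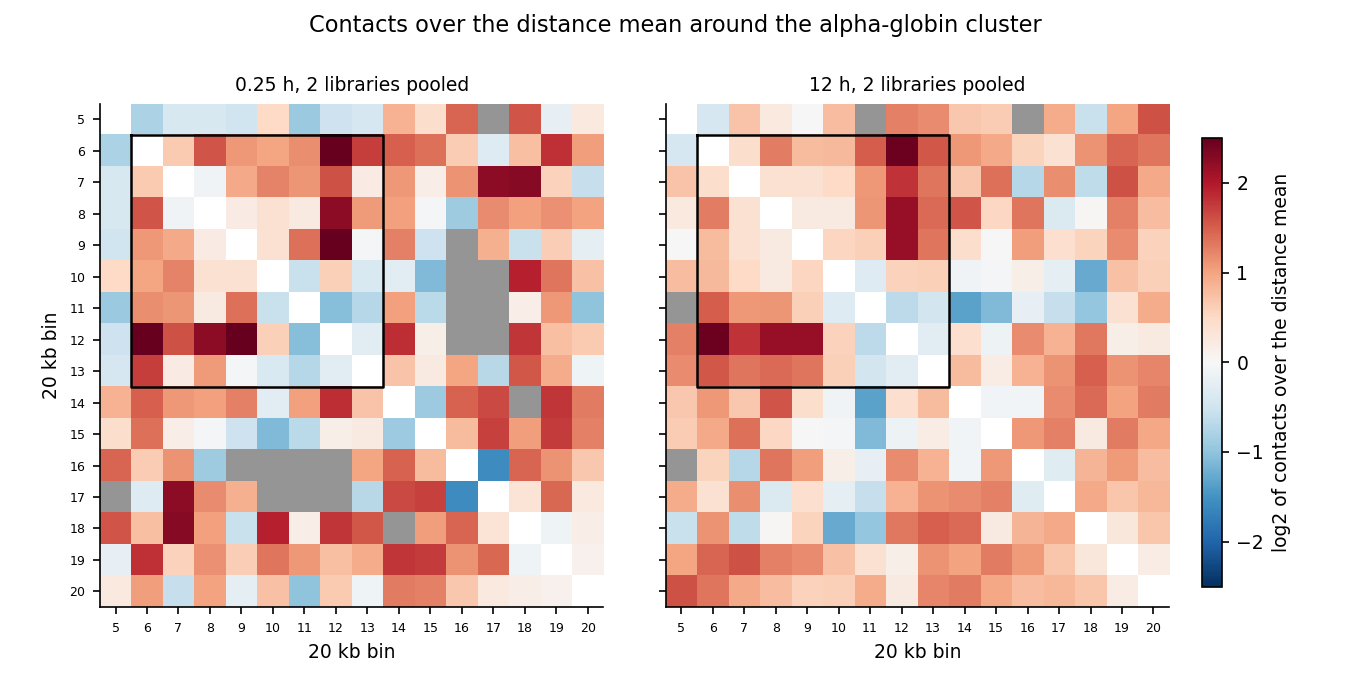
Contacts over the distance mean (colour, log2 scale) for each pair of bins 5 to 20 (both axes, 20 kb bins numbered from the chromosome end) at 0.25 h and at 12 h, 2 libraries pooled per map; the frame marks the 8 alpha-globin bins, grey marks pairs with 0 contacts and the diagonal is left blank. Within the frame, the row of bin 12 is darkest at bins 6, 8 and 9 at both times.

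Bin 11, the zeta-globin bin, met the enhancer bins less. Its pooled ratio was 2.02 (interval 1.57 to 2.55, 70 contacts) with bin 8, 1.91 (interval 1.45 to 2.46, 59 contacts) with bin 9 and 0.82 (interval 0.60 to 1.09, 47 contacts) with bin 10. The 2 gene bins met each other rarely, in 17 contacts at a ratio of 0.61 (interval 0.35 to 0.97). Bin 12 with its other neighbour, the LUC7L bin 13, gave 0.75 (interval 0.56 to 0.97, 55 contacts). Bins 8 and 9 with bin 13 gave 2.47 and 2.36, on 148 and 101 contacts.

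Within each library, the balanced ratios of bins 8 and 9 were higher with bin 12 than with bins 11 and 13, the bins beside it. The ratio of bin 9 with bin 12 exceeded that of bin 9 with bin 11 in 8 of 8 libraries, by 1.41 ± 0.472 on the log2 scale (SD, n = 8), and that of bin 9 with bin 13 in 8 of 8 libraries, by 1.42 ± 0.926. For bin 8 the same differences were 1.39 ± 0.561 and 1.07 ± 0.288, again in 8 of 8 libraries. These 4 comparisons were chosen after the values were seen, so they are a description and carry no test. The whole contacts point the same way without balancing for bin 11: bin 8 shared 150 contacts with bin 12 and 70 with bin 11, and bin 9 shared 120 and 59, although bin 11 lies nearer and the 2 gene bins held like numbers of contacts in all. Bin 13, with more contacts in all, shared 148 with bin 8 and 101 with bin 9. Against bin 13 the order rests on the balancing: without it, contacts over the distance mean were 1.12 for bin 8 with bin 13 and 0.94 with bin 12, and 0.63 for bin 9 with bin 13 and 0.57 with bin 12.

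**Figure D4:**
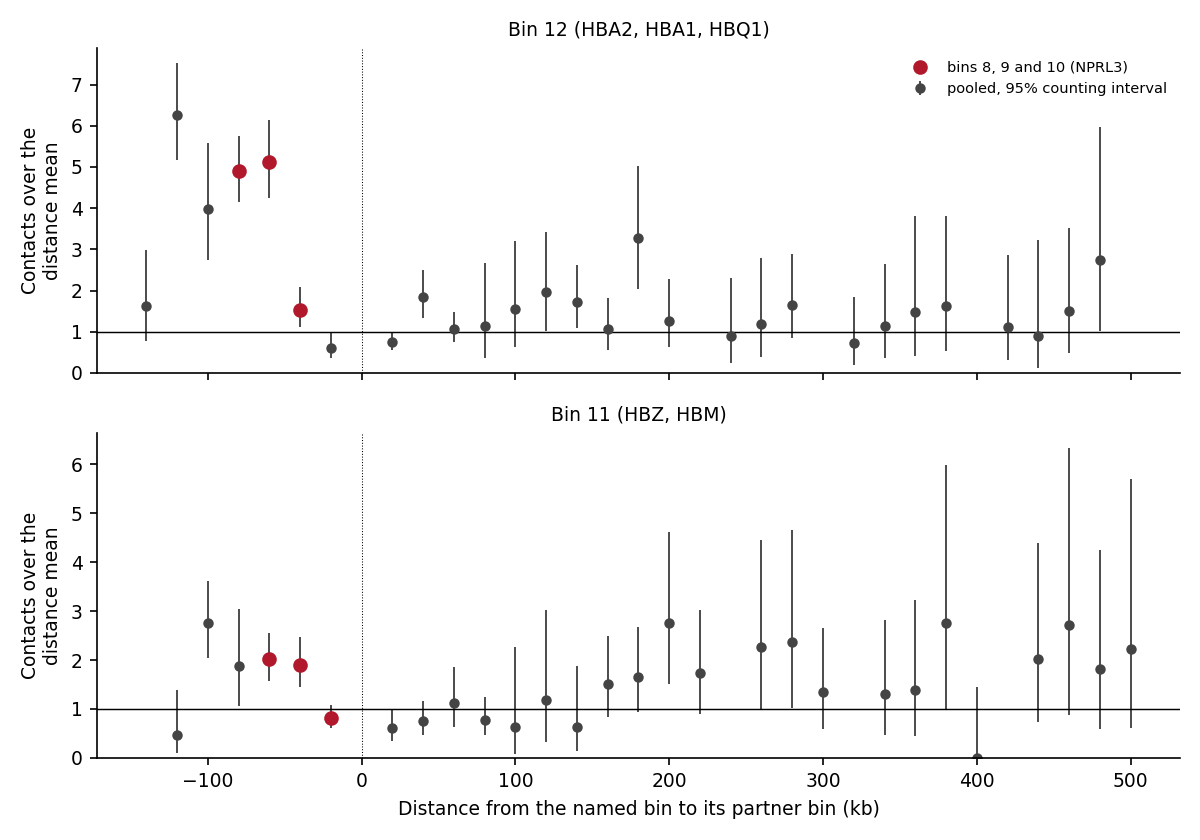
Pooled ratio of contacts over the distance mean (y axis) of bin 12 and of bin 11 with each listed bin within 500 kb, by signed distance in kb (x axis); bars are 95% counting intervals over the 8 libraries, and bins 8, 9 and 10 are in red. For bin 12 the ratios at bins 6, 8 and 9 reach 6.27, 4.91 and 5.13, while for bin 11 bins 8 and 9 reach 2.02 and 1.91.

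The size of these ratios, and with it their ranks, rests on the balancing, which raises the contacts of bins that hold few. Without it, the whole contacts of bin 9 with bin 12 were 0.57 of the distance mean, those of bin 8 with bin 12 0.94 and those of bin 6 with bin 12 1.01. Ratios above 1 were also common across the cluster: 24 of the 28 pairs among the 8 bins were above 1, 23 with an interval above 1 and 2 with an interval below 1, and the median was 1.77. The beta-globin pair at the same 60 kb (the first and the last of its 4 bins) gave 1.59 (interval 1.41 to 1.78, 288 contacts), and that difference was not tested. Without balancing the order turned, at 1.38 of the distance mean for the beta-globin pair against 0.57 for bin 9 with bin 12.

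No change of the enhancer contact of the alpha genes with digestion time was detected beyond the spread of the replicates. The pooled ratio of bin 9 with bin 12 was 5.89 at 0.25 h, then 5.85 (1 h), 5.22 (3 h) and 4.55 (12 h), with intervals that overlapped (3.54 to 9.19 at 0.25 h and 3.35 to 6.03 at 12 h). Spearman's rho between log2 hours and the ratio was -0.39 over the 8 libraries (exact permutation p = 0.361, two-sided), and Pearson's r was -0.32 (exact permutation p = 0.422), or -0.41 without both 0.25 h libraries. Counted as CPM the sign turned, with rho at 0.20 (exact permutation p = 0.672). The contacts themselves were few, at 12 and 7 (0.25 h), 14 and 12 (1 h), 11 and 16 (3 h) and 30 and 18 (12 h). What size of change could be detected at this depth was not tested.

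Among all pairs of the 8 bins with the first 2 Mb, 484 in number, 24 held a mean of at least 10 contacts per library and were tested in limma with 1277998 pairs of the genome. Of these 24, 2 were called, both lower at 0.25 h than at 12 h, where 0.445% of all pairs were called lower and 1.51% higher. Bin 7 with its neighbour bin 8 held 16 and 9 contacts (0.25 h), 35 and 8 (1 h), 29 and 27 (3 h) and 70 and 60 (12 h). Its log2 fold change of CPM was -1.24 (SE 0.323, adjusted p = 0.0315 by limma), and the call was lost without any one of 6 libraries, all but the 1 h pair. On the balanced signal over the distance mean it stood at -0.33 (SE 0.397, adjusted p = 0.925 by limma). Bin 9 with the LUC7L bin 13 held 2 and 3 contacts (0.25 h), 12 and 6 (1 h), 14 and 10 (3 h) and 17 and 37 (12 h). Its log2 ratio of 0.25 h over 12 h was -1.97, but it reached a mean of 10 contacts only through its 12 h libraries, so this call is a description and supports nothing. The enhancer and gene pairs were not called: bin 9 with bin 12 stood at -0.15 (SE 0.385, adjusted p = 0.918), bin 8 with bin 12 at -0.48 (SE 0.335, adjusted p = 0.582) and bin 6 with bin 12 at 0.09 (SE 0.372, adjusted p = 0.952). For bin 9 with bin 12 the sign turned without 12 h replicate 1 (0.10) and on the balanced signal over the distance mean (0.47), and for bin 6 with bin 12 without 0.25 h replicate 1 (-0.10).

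The insulation score, the log2 mean signal crossing a bin between the 100 kb before it and the 100 kb after it, over the chromosome mean, describes how the cluster sits among domains. It was set where at least 40% of the bin pairs it covers were listed, which held for 7 of the 8 bins. The first 4 bins of the chromosome were not listed, so for bins 7, 8 and 9 it rests on part of these pairs. The missing pairs are the most distant ones, and their part in the high scores was not tested. Bins 7 to 11, from MPG and NPRL3 to HBZ and HBM, scored from 1.08 to 1.21 over the 8 libraries, above 99.7% to 99.9% of all bins, which means that much balanced signal crosses them. This too rests on the balancing, since whole contacts of pairs across these bins were mostly below the distance mean (0.33 for bin 8 with bin 11 and 0.18 for bin 9 with bin 11). The score fell to 0.27 ± 0.210 (SD, n = 8) at bin 12 and 0.25 ± 0.153 at bin 13, still above 84.5% and 83.1% of all bins, and rose again to 0.66 and 1.01 at bins 15 and 16. Local minima that met the boundary rule (a prominence of at least 0.2) lay at bin 12, 13 or 14 in each of the 8 libraries: at bin 12 in 2, at bin 13 in 3 and at bin 14 in 3. A further minimum lay at bin 8, in 3 h replicate 2. Such minima are common: 7.51% to 10.5% of all scored bins met the rule, by library, and the 7 alpha-globin bins held 0 to 2 of them per library, so these counts are not read as particular to the cluster.

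**Figure D5:**
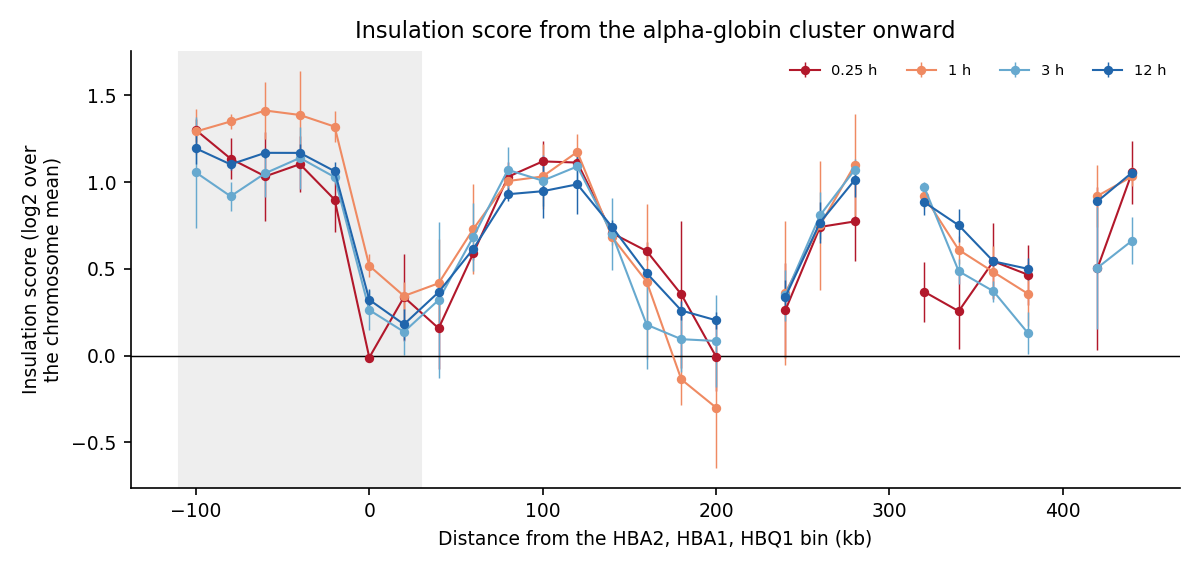
Insulation score (y axis, log2 over the chromosome mean) by distance in kb from the HBA2, HBA1, HBQ1 bin (x axis); points are means and bars SD of 2 libraries per digestion time, the grey band marks the alpha-globin bins, and breaks mark bins that could not be scored. The means fall from between 0.90 and 1.32 at the HBZ bin to between -0.01 and 0.52 at bin 12.

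Bin 12 had the 1 score of the 7 with an unadjusted p under 0.05 for 0.25 h against 12 h. It was -0.01 and -0.01 (0.25 h), 0.47 and 0.57 (1 h), 0.34 and 0.18 (3 h) and 0.28 and 0.36 (12 h). Both 0.25 h libraries were below the other 6. The difference of 0.25 h from 12 h was -0.33 (SE 0.081, unadjusted p = 0.00275 and adjusted p = 0.584 by limma), so it did not pass over all bins. No bin of the 135560 scored was called by limma, 0% at the threshold, and 9558 had an unadjusted p under 0.05, 1 of them among the 7. Without 0.25 h replicate 1 limma called 219 bins, 49 higher and 170 lower, none of them among the 7. Scored on whole contacts without balancing, bins 9, 10, 11 and 12 were called lower at 0.25 h, at -0.36, -0.37, -0.59 and -0.84, where 18% of all bins and 27 of the 39 other scored bins of the first 2 Mb were called lower.

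The contacts of the cluster within the first 2 Mb were split by the stretch they reached. The 8 bins kept 40.9% ± 1.86 (SD, n = 2) of these contacts among themselves at 0.25 h, then 43.0% ± 0.365 (1 h), 41.9% ± 0.864 (3 h) and 40.2% ± 0.365 (12 h). The stretch from 0.26 to 0.5 Mb took 35.1% ± 1.24 at 0.25 h and 34.3% ± 0.372 at 12 h, and the stretch from 0.5 to 1 Mb took 12.4% ± 0.997 and 14.6% ± 1.11. From 1 to 2 Mb the share was 6.51% ± 1.2 at 0.25 h, then 9.83% ± 0.0285 (1 h), 7.70% ± 0.605 (3 h) and 8.45% ± 0.0847 (12 h). The side toward the chromosome end, under 0.10 Mb, took 2.77% and 7.46% (0.25 h), 2.84% and 2.98% (1 h), 3.35% and 2.64% (3 h) and 2.68% and 2.27% (12 h), where 0.25 h replicate 2 stood apart on 29 contacts. These are shares of 389 to 2056 contacts per library, and the sums got no test.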

How the data were processed

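The authors deposited, per sample, a list of bin pairs with a balanced signal, 1 value per pair, in which all bins have nearly equal totals. Per the submitters' processing notes, HiC-Pro 2.11.1 and Bowtie2 2.3.4.1 were used with hg19. The second sequencing run (20 kb bins) is the main source and the first, shallower run (50 kb bins, same times and replicate numbers) an alternative. Whole contacts were recovered from the deposited signal by solving for 1 factor per bin: 100% of values came out within 0.01 of a whole number. Contacts per bin, self contacts, pair contacts and insulation scores were fitted with limma 3.58.1 (R 4.3.3, trended empirical Bayes) on log2 values with 0.5 contacts added, over all bins with a mean of at least 100 contacts or all pairs with at least 10, with Benjamini-Hochberg adjustment over the whole table and a threshold of 0.05. All 8 libraries share 1 estimate of the spread. The added 0.5 contacts lift low counts more in the shallower 0.25 h libraries, so drops of low pairs can be understated and rises overstated. Bin 11, with 0 self contacts in every library, stands at 0.96 on self CPM in this way (log2, 0.25 h over 12 h). Replicate differences in contacts per bin correlated between times (0.110 to 0.254 over 6 pairs of times). The reported fits leave this pairing out. A fit with the replicate number as a block is given as an alternative, and in it bin 12 was called lower as well. Named were all 8 bins, the pairs of bins 8, 9 and 10 with 11 and 12, bins 12 and 13, 6 and 12, 6 and 9, called pairs, and for bins 9, 11 and 12 the 3 partners at least 5 bins away with the highest mean ratio. The members, lists and rules were chosen with earlier results of these data known. The scripts were tested on simulated data. Alternatives tried were other scalings, filters, pseudocounts, windows, contact types, a replicate block and leaving out each library. HindIII sites per bin were not analysed here.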

Additional observations from a re-analysis of the deposited data

How the results depend on the processing

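The percentage of the 8 bins called lower at 0.25 h was 75% and lay between 75% and 87.5% without any 1 library. It was 75% with median-of-ratios scaling, no filter, contacts on the same or on other chromosomes only, or the 0.25 h and 12 h libraries alone, and 87.5% with contacts inside a bin (55.8% of all bins) or with the replicate block (37.4% of all bins), against 34.9% of all bins in the reported fit. In the first run 2 of 2 tested 50 kb bins were called, but both had passed the filter only through their 12 h libraries. The globin bin of that run, tested with a lower filter, was not called. Against neighbouring bins, added after seeing the data, it was 37.5%. Over bins 11 and 12 only signs of values that were not called turned: bin 11 at -0.019 (same chromosome) and -0.14 (contacts inside the bin included), bin 12 at 0.16 (neighbours). With contacts inside bins included, bins 11 and 12 moved through the library total, since they held almost no such contacts. Of the 6 bins with enough self contacts, 33.3% were called higher, 33.3% to 50% without any 1 library (50% without 0.25 h replicate 1 or either 1 h library), 16.7% on self contacts in CPM (bin 8 higher, and bin 7 lower at -1.23, adjusted p = 0.0295 by limma, with 50.9% of all bins higher) and 66.7% with a pseudocount of 2 (70.9% of all bins, against 64.7% as reported); the cause was not tested. Of the pairs, 2 were called, and calls were lost when single libraries were left out. In the reported fit 1.95% of all pairs were called. The count was 1 with a pseudocount of 2 (2.28% of all pairs called) and 1 with a mean of at least 20 contacts (6.1%). It was also 1 with 0.25 h and 12 h alone (1.23%). It was 0 with a mean of at least 5 (0.676% of all pairs called), and 0 over the distance mean, balanced or not. There limma also called 0 of all 1277998 pairs (75943 and 140321 at an unadjusted p under 0.05). The causes of these changes were not tested. Log2 fold changes that turned were bin 9 with bin 12 (0.47 balanced, and from -0.40 to 0.10 without any 1 library, above 0 without 12 h replicate 1) and bin 6 with bin 12 (from -0.10 to 0.28 without any 1 library, below 0 without 0.25 h replicate 1). Insulation called 0 bins in every setting but whole contacts without balancing, which called 4. The trend of bin 9 with bin 12 had rho from -0.61 to -0.20 without any 1 library, -0.39 with the replicate block (exact permutation p = 0.323) and 0.20 on contacts in CPM. The pairing changed no call other than that of bin 12. Depth limits the pairs: 460 of 484 held too few contacts to test.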

Other observations

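Beyond the cluster itself, 1 distant partner of the enhancer bin rested on more than a few contacts. Bin 9 met bin 21, 240 kb away, in 52 contacts, at a pooled ratio of 3.71 (exact Poisson 95% interval 2.77 to 4.86), the highest of the 35 pairs at that distance in the first 2 Mb, whose median was 1.70. The pair was named for its high mean ratio, so this rank is a description, and without balancing its contacts were 0.79 of the distance mean. It held 3 and 3 contacts (0.25 h), 7 and 0 (1 h), 14 and 4 (3 h) and 12 and 9 (12 h), and 7 of 8 libraries were above 1. The other distant partners named by the rule, for bins 9, 11 and 12 at 800 kb or more, held 1 to 8 contacts each over the 8 libraries, with intervals as wide as 0.09 to 20.3 for bin 11 with bin 86, and show no order.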
